A study of Mus musculus with 12 samples.

Results

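The genes described here are 10 direct transcriptional targets of p53 (encoded by Trp53), chosen by name and found in the tables by symbol: Cdkn1a, Ccng1 and Plk2 (cell cycle), Mdm2 and Zmat3 (feedback on p53), Phlda3, Sesn2 and Trp53inp1 (survival, metabolism and stress), and Eda2r and Bbc3 (apoptosis). The genes, and the lists read beside them, were chosen with earlier results of these data known, so they are not an independent set. All 10 were among the 24480 genes quantified, and all 10 passed the filter on low counts in both experiments. RNA came from E14Tg2a cells, a line of undifferentiated mouse embryonic stem cells (ESCs), grown without feeders in serum and LIF, and every group carried the same transient lipid transfection. In the knockdown experiment, cells received siRNAs against mouse Yap1 (YAP KD) or scrambled siRNAs (CTR KD). For overexpression, a pCAG plasmid encoding mouse YAP was given (YAP OE) or, per the labels, a plasmid encoding GFP (CTR OE), which the study's text calls an empty vector. The 4 groups were sequenced as 3 independent samples each, and the experiments shared no control library.

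p53 is a transcription factor that is held low by the ubiquitin ligase Mdm2 and is stabilized by DNA damage and other stresses. Its targets can arrest the cell cycle, repair DNA, limit growth signals or start apoptosis, and Mdm2 is itself a target, which closes a negative feedback loop. ESCs are known for abundant p53 and a short G1 phase with little of the cell-cycle inhibitor p21. YAP, the coactivator that Hippo signalling restrains, acts on DNA through TEAD factors, and the comparisons give the level of the p53 targets with less and with more of it.

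p53 binds a pair of 10-base repeats, and such pairs are shown because the genes were chosen as p53 targets. Promoter windows of RefSeq (GRCm38.p6, 250 bases before to 50 after a transcription start) were present for 8 of the 10 genes, in 11 windows. Zmat3 and Trp53inp1 had none. The p53 response element consensus was searched as abutting repeats with the C and G of each core fixed, which reads the same on both strands. At up to 3 mismatches outside those fixed bases, 3 genes held a match. The matches are shown 5′ to 3′, with the 4-base core of each repeat in capitals:
Cdkn1a: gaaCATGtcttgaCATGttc
Ccng1: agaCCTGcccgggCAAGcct
Bbc3: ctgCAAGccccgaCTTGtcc
The Cdkn1a match lay on the plus strand of chromosome 17 (29090928 to 29090947) with 1 mismatch, in the window of the more upstream of its 2 annotated starts. The Ccng1 match lay on the minus strand of chromosome 11 (40755462 to 40755481) with 1 mismatch. The Bbc3 match lay on the plus strand of chromosome 7 (16309486 to 16309505) with 3 mismatches. Among all 32851 windows, 0.0670% held a match with at most 1 mismatch and 1.38% one with at most 3. The hexamer GGAATG, the core of TEAD motifs, was found on either strand in the windows of Phlda3 and Eda2r, against 14.7% of all windows. A match is a description of these windows, not evidence of binding.

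Libraries ranged from 42926260 to 57240700 expected counts. Yap1 was 124.9 ± 9.16 CPM in CTR KD and 56.5 ± 1.72 in YAP KD, and 133 ± 1.96 in CTR OE and 260 ± 16.8 in YAP OE (mean ± SD, n = 3, CPM, counts-per-million of a library after TMM scaling), so all libraries lay on the side their labels give. Of 3 known YAP targets read as a further check, Ctgf and Amotl2 fell in YAP KD (log2 fold changes of -0.71 and -0.74) and rose in YAP OE (0.31 and 0.35), while Cyr61 rose in YAP OE (1.00) and had -0.032 in YAP KD. All 10 ESC markers were expressed, at a mean of at least 82.2 CPM each in every group. Markers of other cells were low: 6 fibroblast markers summed to between 1.88 and 3.09 CPM, and 6 primitive endoderm markers to 6.29 to 7.25 in CTR KD, 6.70 to 8.41 in YAP KD, 6.11 to 7.45 in CTR OE and 7.76 to 8.65 in YAP OE. The sum of 6 trophoblast markers was 4.73 to 5.33 CPM in CTR KD, 5.55 to 6.10 in YAP KD, 6.96 to 7.72 in CTR OE and 9.14 to 12.6 in YAP OE. One library stood apart. In CTR KD replicate 2, deviations of genes from their group mean correlated with the GC content of the transcript (r = 0.64 across 11049 genes), against -0.43 to 0.29 in the other 11 libraries. In bulk RNA, fewer cells expressing a gene and less RNA per cell cannot be told apart.

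In YAP KD, the log2 fold change of all 10 p53 target genes was negative, while 48.2% of all 14606 genes tested had a negative value. Phlda3, Zmat3 and Plk2 fell (3 of 10 genes, quasi-likelihood test of edgeR, adjusted p under 0.05 over all genes) and none rose. The background was 2.78% of genes called lower, 2.71% called higher and 5.49% in either direction. The median log2 fold change of the 10 was -0.18, and that of all genes tested 0.0058. All YAP KD libraries lay below all CTR KD libraries for 6 of the 10 genes and above them for none. Over all genes, 12.7% lay below, 13.2% above and 25.9% on either side. The number of calls changed whichever library was left out, among the 10 and over all genes (802 called in the main fit). No gene of the 10 was called without CTR KD replicate 3, YAP KD replicate 1 or YAP KD replicate 2. In these fits 298, 360 and 306 genes were called in all. Leaving out CTR KD replicate 2 gave 5 of the 10 (1019 genes in all), CTR KD replicate 1 gave 2 (574) and YAP KD replicate 3 gave 1 (369). Without CTR KD replicate 2, 9 of the 10 values were negative. With the replicate number as a block, all 10 were negative and 0 were called, with 193 genes called in all. The summed ESC markers were also slightly lower in YAP KD (6156 to 6491 CPM) than in CTR KD (6492 to 6704 CPM), and the fibroblast sum was 2.39 to 3.09 CPM in YAP KD against 1.88 to 2.13 in CTR KD. The trophoblast sum was also higher in YAP KD (5.55 to 6.10 CPM) than in CTR KD (4.73 to 5.33 CPM). The part of these marker differences in the decrease was not tested.

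In YAP OE, Plk2 alone of the 10 genes rose and none fell, where 1.66% of all 14804 genes tested were called higher, 0.473% lower and 2.13% in either direction. Positive values were seen for 7 of the 10 and for 48.7% of all genes, with a median of 0.059 against -0.0025 over all genes. For Plk2 and Mdm2, all YAP OE libraries lay above all CTR OE libraries, and for none of the 10 did they all lie below. Over all genes, 10.3% lay above, 7.8% below and 18.1% on either side. A negative value in YAP KD with a positive value in YAP OE was found for 7 of the 10 genes and for 28.8% of all genes. Calls lower in YAP KD and higher in YAP OE were made for Plk2 and for 0.551% of all genes, and 60.9% of all genes had opposite signs.

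**Figure D1:**
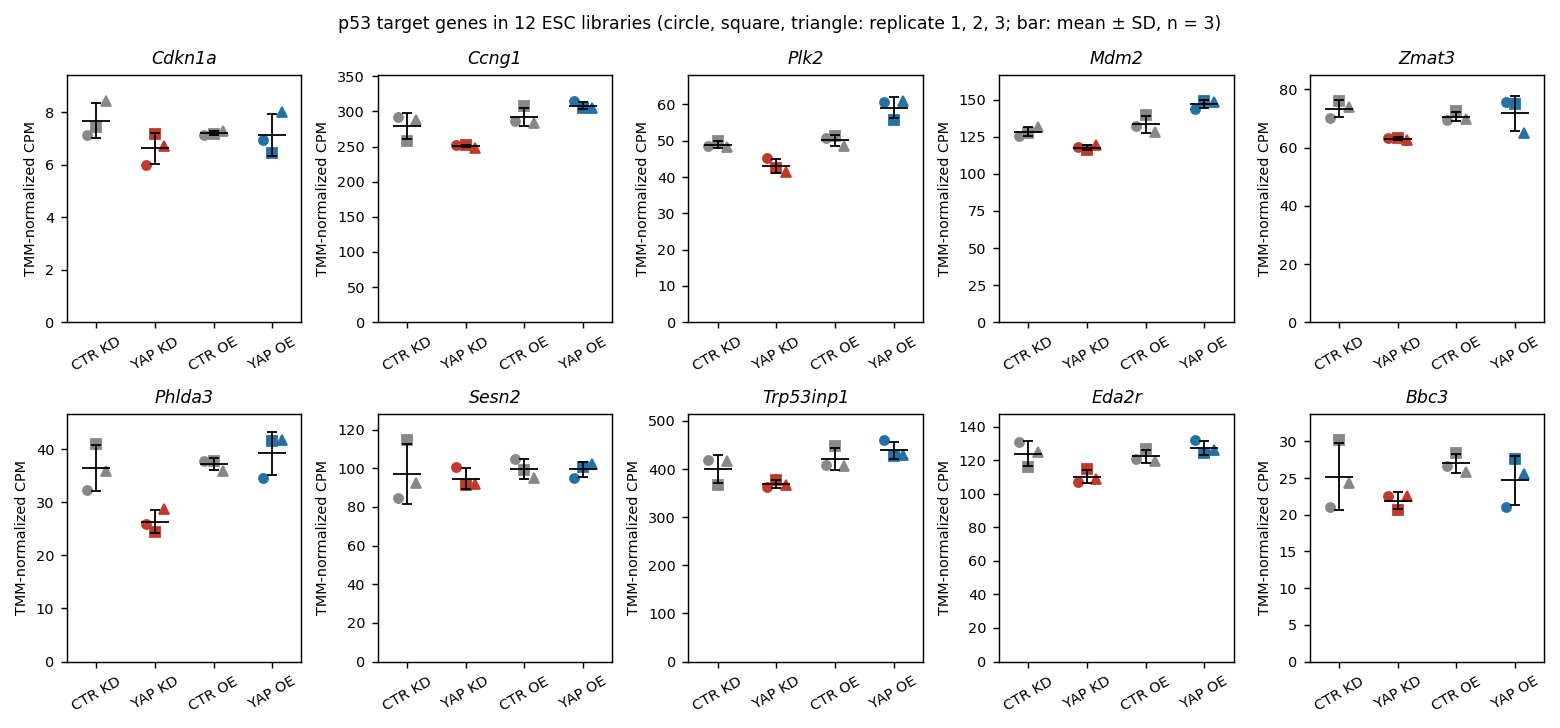
Each panel shows 1 gene, with TMM-normalized CPM on the vertical axis (from 0) and the 4 groups on the horizontal axis. Symbols are single libraries, and bars give the mean ± SD of 3. All YAP KD libraries (red) of Phlda3, Zmat3, Plk2, Ccng1, Mdm2 and Eda2r lie below all their controls. All YAP OE libraries (blue) of Plk2 and Mdm2 lie above theirs.

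The order of the genes by level was the same in all 4 groups. On a per-length scale (CPM per kilobase of effective transcript length), the means in CTR KD were 84.3 ± 5.49 for Ccng1, 76.5 ± 5.58 for Trp53inp1, 44.0 ± 0.988 for Mdm2, 39.1 ± 6.29 for Sesn2 and 36.1 ± 2.09 for Eda2r. They continued with 28.2 ± 3.41 for Phlda3, 18.6 ± 0.381 for Plk2, 14 ± 2.55 for Bbc3, 9.65 ± 0.389 for Zmat3 and 4.41 ± 0.380 for Cdkn1a. Single CTR KD libraries overlapped between Ccng1 and Trp53inp1, and those of Sesn2 overlapped with Mdm2 and with Eda2r, while Mdm2 and Eda2r did not overlap. Single libraries kept this order in 9 of 12 cases. p21 mRNA was thus the scarcest of the 10 and cyclin G1 mRNA the most abundant, in every group.

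Among the genes of cell-cycle control, Cdkn1a (chromosome 17, 29090979 to 29100722) encodes p21, the inhibitor of cyclin-dependent kinases that carries out much of the arrest after p53 activation. It was read at 7.14, 7.45 and 8.42 CPM in CTR KD and at 6.0, 7.15 and 6.71 CPM in YAP KD. The groups overlapped by a single library, YAP KD replicate 2, which lay just above the lowest control. The log2 fold change was -0.21 (SE 0.0912), with an unadjusted p of 0.0435 and an edgeR adjusted p of 0.234. In the overexpression it was 7.14, 7.19 and 7.29 CPM in CTR OE and 6.94, 6.45 and 8.01 CPM in YAP OE, where the YAP libraries lay on both sides of the tightly grouped controls. That log2 fold change was -0.0081 (SE 0.0839, adjusted p = 0.987 by edgeR). Its counts were low, at 254 to 448 per library.

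Ccng1 (chromosome 11, 40748552 to 40755309) encodes cyclin G1, which brings a phosphatase to Mdm2 and so acts on p53 stability. Its levels were 292.2, 258.3 and 287.3 CPM in CTR KD and 252, 252.1 and 248.7 CPM in YAP KD. All YAP KD libraries lay below the controls, although CTR KD replicate 2 was close to them. The log2 fold change was -0.15 (SE 0.0504, adjusted p = 0.118 by edgeR), and without CTR KD replicate 2 it was -0.21 with an adjusted p of 0.00773. In CTR OE the levels were 286.9, 307.2 and 283 CPM and in YAP OE 314.8, 305.1 and 305.2 CPM. The groups overlapped through CTR OE replicate 2, and the log2 fold change was 0.077 (SE 0.0431, adjusted p = 0.487 by edgeR).

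Plk2 (chromosome 13, 110395044 to 110400844), a polo-like kinase of the G1/S transition and centriole duplication, was the one target called in both experiments. It stood at 48.6, 50 and 48.2 CPM in CTR KD and fell to 45.3, 42.4 and 41.5 CPM in YAP KD, without overlap. The log2 fold change was -0.19 (SE 0.0460, adjusted p = 0.0476 by edgeR), a decrease of 12.1%. The value was close to the threshold. The call was lost in each of the 6 fits that left out 1 library of the knockdown, where the log2 fold change ran from -0.23 to -0.16, and with DESeq2 (adjusted p = 0.0504). In CTR OE it stood at 50.7, 51.4 and 48.5 CPM, and it rose in YAP OE to 60.8, 55.7 and 60.9 CPM, again without overlap. This was an increase of 18.0% (log2 fold change 0.24, SE 0.0445, adjusted p = 0.00891 by edgeR), lost, of the 6 fits that left out 1 library, only without CTR OE replicate 3 (0.21, adjusted p = 0.0871). The trophoblast and primitive endoderm marker sums given above were also higher in YAP OE without overlap, and edgeR called 2 of 6 and 1 of 6 of these markers higher. Their part in this change was not tested.

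**Figure D2:**
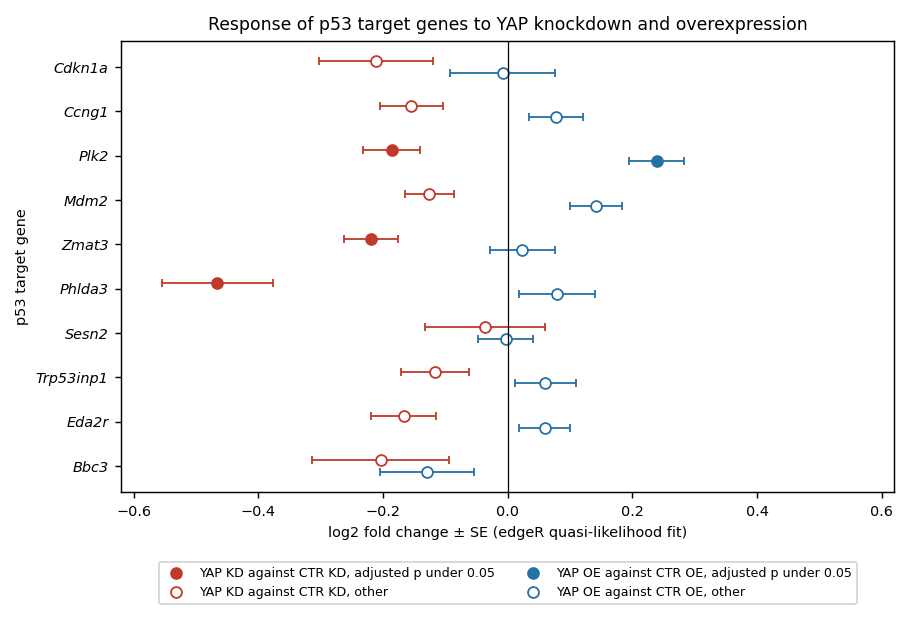
Log2 fold changes of the 10 genes on the horizontal axis, with bars of ± 1 SE, for YAP KD against CTR KD (red) and YAP OE against CTR OE (blue). Filled points passed an adjusted p of 0.05. All red points lie left of 0, from -0.47 for Phlda3 to -0.036 for Sesn2, and the blue points run from -0.13 for Bbc3 to 0.24 for Plk2.

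Of the feedback genes, Mdm2 (chromosome 10, 117688875 to 117710758) encodes the ligase that marks p53 for degradation. Its levels were 125.9, 127.7 and 131.6 CPM in CTR KD and 118, 115.9 and 119.2 CPM in YAP KD. In CTR OE they were 132.1, 139.8 and 128.5 CPM, and in YAP OE 144, 149.1 and 148.5 CPM. Neither pair of groups overlapped, with YAP KD below and YAP OE above the controls, but neither difference passed the test over all genes. The log2 fold changes were -0.13 (SE 0.0387, adjusted p = 0.102 by edgeR) and 0.14 (SE 0.0411, adjusted p = 0.106 by edgeR), of nearly equal size.

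Zmat3 (chromosome 3, 32334792 to 32365665), also known as Wig1, encodes a zinc finger protein that binds RNA. It stood at 70.2, 76 and 74 CPM in CTR KD and fell to 63.2, 63.4 and 62.6 CPM in YAP KD. The YAP KD libraries lay close together and below all controls. The decrease was 14.1% (log2 fold change -0.22, SE 0.0427, adjusted p = 0.0180 by edgeR). The call was lost without CTR KD replicate 3 (-0.21, adjusted p = 0.0824) and without YAP KD replicate 1 (-0.22, 0.0731), 2 (-0.22, 0.0855) or 3 (-0.22, 0.0748). The overexpression gave 69.5, 72.4 and 70 CPM in CTR OE and in YAP OE 75.8, 74.9 and 64.9 CPM. YAP OE replicate 3 lay below and the others above all controls, with a log2 fold change of 0.023 (SE 0.0521, adjusted p = 0.913 by edgeR). Expected counts of Zmat3 were not whole in 11 of 12 libraries, so RSEM divided some of its reads. The largest distance from the nearest whole number, 0.48 counts, does not give how many reads were divided. A long noncoding RNA gene, 4930429B21Rik, overlaps it, and no strand setting is stated.

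Phlda3 (chromosome 1, 135766085 to 135769134) encodes a small pleckstrin homology protein that competes with AKT for membrane lipids and so dampens survival signalling. It showed the largest decrease of the 10 genes in YAP KD. It was read at 32.3, 41 and 35.9 CPM in CTR KD and at 26, 24.4 and 28.8 CPM in YAP KD, without overlap. This was a decrease of 27.6% (log2 fold change -0.47, SE 0.0886, adjusted p = 0.0161 by edgeR). The call was lost without CTR KD replicate 3 (-0.48, adjusted p = 0.0661) and without YAP KD replicate 1 (-0.46, 0.0733) or replicate 2 (-0.41, 0.0824). Levels in CTR OE were 37.8, 37.8 and 35.8 CPM and in YAP OE 34.6, 41.5 and 41.6 CPM. YAP OE replicate 1 lay below all controls and the other libraries above them (log2 fold change 0.079, SE 0.0614, adjusted p = 0.656 by edgeR).

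Sesn2 (chromosome 4, 132492804 to 132510456) encodes sestrin 2, a leucine sensor that restrains mTORC1. It was 84.4, 114.5 and 92.3 CPM in CTR KD and 100.9, 91.3 and 91.9 CPM in YAP KD. The controls enclosed all YAP KD libraries, and CTR KD replicate 2 was far above the others. The log2 fold change was -0.036 (SE 0.0966, adjusted p = 0.890 by edgeR), and its sign turned without that library (0.099, adjusted p = 0.316). In the overexpression it was 104.9, 99 and 95 CPM in CTR OE and in YAP OE 95.1, 100.9 and 102.2 CPM, with full overlap and a log2 fold change of -0.0033 (SE 0.0445, adjusted p = 0.989 by edgeR), whose sign turned with total counts or upper-quartile factors.

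Trp53inp1 (chromosome 4, 11156441 to 11174379) encodes a stress protein of the nucleus and of autophagosomes. Its levels were 418.1, 366.6 and 416.6 CPM in CTR KD and 363.1, 378.1 and 366.6 CPM in YAP KD. Here CTR KD replicate 2 lay among the YAP KD libraries, with the other controls well above. Its log2 fold change was -0.12 (SE 0.0543, adjusted p = 0.273 by edgeR), and -0.18 with an adjusted p of 0.0204 without that library. In CTR OE it was 409, 447.7 and 406 CPM and in YAP OE 459.6, 426.9 and 429.7 CPM. CTR OE replicate 2 was above 2 of the YAP OE libraries, and the log2 fold change was 0.060 (SE 0.0490, adjusted p = 0.677 by edgeR).

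Of the apoptosis genes, Eda2r (chromosome X, 97333837 to 97377234) encodes a receptor of the tumour necrosis factor family. It was 130.6, 115.8 and 124.8 CPM in CTR KD and 107, 114.8 and 108.8 CPM in YAP KD, narrowly without overlap. This gave a log2 fold change of -0.17 (SE 0.0522, adjusted p = 0.107 by edgeR), and -0.21 with an adjusted p of 0.0143 without CTR KD replicate 2. In CTR OE it was 120.4, 126.7 and 119.5 CPM and in YAP OE 131.8, 124.1 and 126 CPM. Only YAP OE replicate 1 exceeded every control (log2 fold change 0.059, SE 0.0404, adjusted p = 0.593 by edgeR).

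Bbc3 (chromosome 7, 16308398 to 16318334) encodes PUMA, a BH3-only protein that neutralizes the survival members of the Bcl2 family. It was 21.1, 30.1 and 24.3 CPM in CTR KD and 22.6, 20.6 and 22.5 CPM in YAP KD. The lowest control lay among the YAP KD libraries, and CTR KD replicate 2 was again the highest. Its log2 fold change was -0.20 (SE 0.110, adjusted p = 0.359 by edgeR), and -0.052 without that library. With overexpression it was 26.7, 28.5 and 25.8 CPM in CTR OE and in YAP OE 21, 27.6 and 25.6 CPM. Its log2 fold change of -0.13 (SE 0.0759, adjusted p = 0.509 by edgeR) was the lowest of the 10 in the overexpression, and it was -0.025 without YAP OE replicate 1.

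Libraries of the same group deviated in a pattern that split the genes. Across the 12 libraries, the deviations of Bbc3, Phlda3 and Sesn2 from their group means correlated with each other at r from 0.72 to 0.92. Those of Trp53inp1, Ccng1 and Eda2r did so at 0.86 to 0.96. Between these sets r ran from -0.81 to -0.61. The first set has the highest transcript GC content of the 10 genes, at 65.2% for Bbc3, 62.6% for Phlda3 and 58.7% for Sesn2. The second has the lowest, at 38.8% for Trp53inp1, 40.8% for Ccng1 and 40.9% for Eda2r. The points share libraries and the trend with GC content, and the correlations are given as a description. In CTR KD replicate 2 the GC-rich genes deviated upwards, by 0.27 for Bbc3, 0.25 for Sesn2 and 0.18 for Phlda3 on the log2 scale, and the GC-poor genes downwards, by -0.12 for Trp53inp1, -0.11 for Ccng1 and -0.09 for Eda2r.

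**Figure D3:**
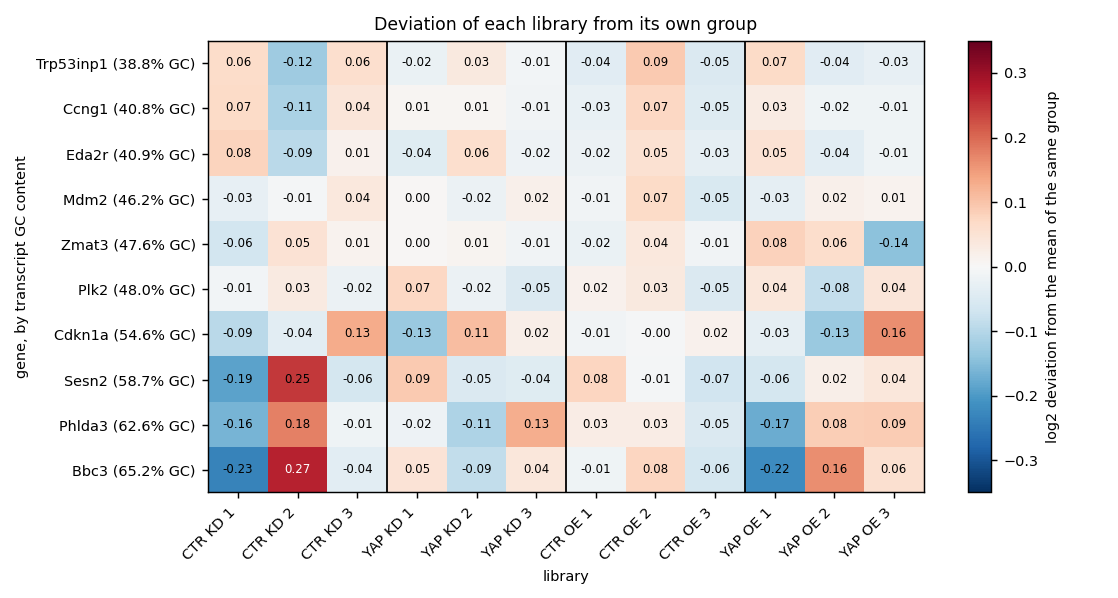
Log2 deviation of each library (columns, grouped by vertical lines) from the mean of its own group, for the 10 genes ordered from low (top) to high (bottom) transcript GC content. Red is above and blue below the group mean. CTR KD 2 is blue for the 3 GC-poorest genes and red for the 3 GC-richest, up to 0.27 for Bbc3.

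An alternative chosen after the data were seen removed the trend with GC content from each library before the same edgeR test. In YAP KD it called 7 of the 10 genes lower, where 4.71% of all genes were called lower, 4.42% higher and 9.13% in either direction in that fit. These were Phlda3 (-0.47, adjusted p = 0.000593), Zmat3 (-0.22, 0.00704), Eda2r (-0.18, 0.00721), Ccng1 (-0.17, 0.0108), Plk2 (-0.18, 0.0221), Trp53inp1 (-0.14, 0.0254) and Mdm2 (-0.13, 0.0408). Cdkn1a (-0.21, adjusted p = 0.213), Bbc3 (-0.20, 0.0993) and Sesn2 (-0.042, 0.763) were not called. With the replicate number as a block in addition, 3 of the 10 were called, Zmat3, Phlda3 and Eda2r. Removing the GC trend alone moved the fold changes little, and the SE of Ccng1 went from 0.0504 to 0.0329. In YAP OE the same procedure called Plk2 (0.23, adjusted p = 0.00915) and no other of the 10, where 1.84% of all genes were called higher, 0.567% lower and 2.4% in either direction.

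**Figure D4:**
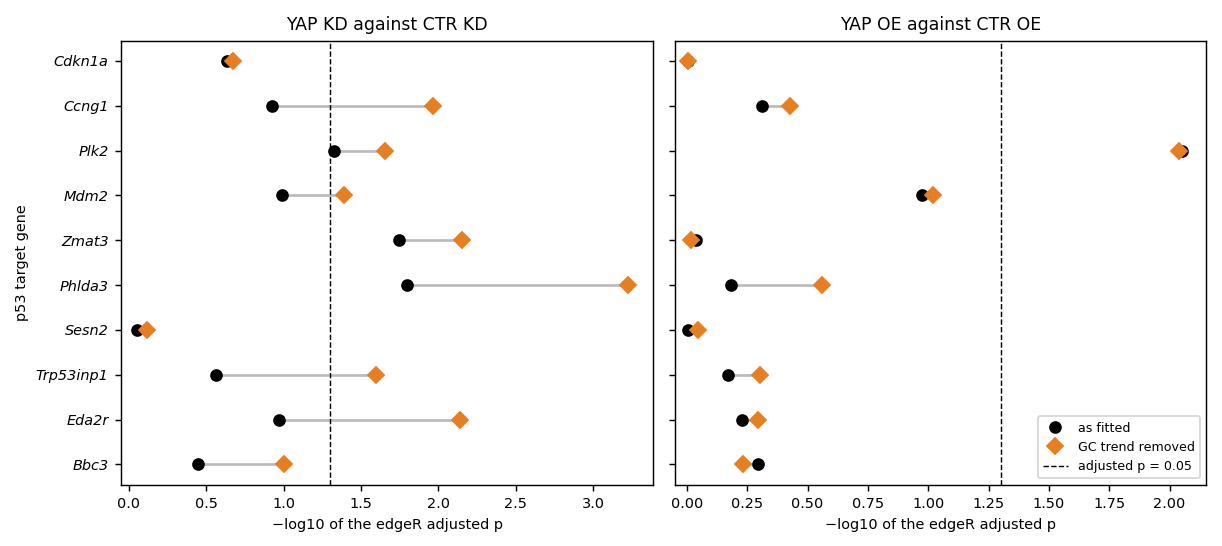
For each gene, the −log10 of the edgeR adjusted p as fitted (circles) and after removal of the GC trend (diamonds), in the knockdown (left) and the overexpression (right). The dashed line marks 0.05. In the knockdown 3 circles and 7 diamonds lie right of the line, and in the overexpression Plk2 alone, by both.

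The effects of both experiments were then compared directly in 1 fit over all 12 libraries, as the YAP OE effect minus the YAP KD effect. The difference was positive for all 10 genes and for 48.7% of all genes. It contains the YAP KD effect, which was negative for all 10. The values of Sesn2 (0.035) and Bbc3 (0.076) turned negative when single libraries were left out. The test was passed by 5 of the 10, against 5.24% of genes called higher, 3.56% lower and 8.8% in either direction. The difference was 0.55 for Phlda3 (SE 0.122, adjusted p = 0.0106 by edgeR), 0.43 for Plk2 (SE 0.0653, 0.000719), 0.27 for Mdm2 (SE 0.0544, 0.00568), 0.23 for Ccng1 (SE 0.0657, 0.0384) and 0.23 for Eda2r (SE 0.0655, 0.0427). The values of Ccng1 and Eda2r were the least stable, as they were no longer called in 10 and 9 of the 12 fits that left out 1 library, where they ran from 0.20 to 0.28 and from 0.19 to 0.27. Zmat3, at 0.24 (SE 0.0738), had an adjusted p of 0.0520. Mdm2, Ccng1 and Eda2r were called for the difference and in neither experiment alone.

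The sum of both effects is 0 where a gene falls on knockdown as far as it rises on overexpression. It was called for 0 of the 10 genes in edgeR (1.22% of all genes were called, 0.784% above and 0.432% below 0). An unadjusted p under 0.05 was found for 3 of the 10 and for 1706 of all 15049 genes tested. No other tool was run on this contrast. The sum was close to 0 for Mdm2 (0.013, SE 0.0544) and Plk2 (0.049, SE 0.0653). The largest departure was that of Phlda3 (-0.39, SE 0.122, adjusted p = 0.173 by edgeR), for which the knockdown value was the larger one. After removal of the GC trend it was -0.35 with an adjusted p of 0.0298. Zmat3 (-0.20) and Bbc3 (-0.34) also had an unadjusted p under 0.05, at 0.0167 and 0.0462.

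Other genes of the pathway were read as lists. Of 33 further p53 target genes, 32 were tested in YAP KD (all but Fas), 24 of these had a negative log2 fold change (48.2% of all genes did), and the median was -0.068. Lower calls numbered 6 (edgeR, adjusted p under 0.05) and none was higher, where 2.78% of all genes were called lower and 2.71% higher. Positive values were found for 8. Among these, all YAP KD libraries lay above all controls for Gadd45a (0.18, adjusted p = 0.0622 by edgeR), Sfn (0.16, 0.0660) and Sesn1 (0.24, 0.114). All YAP KD libraries lay below all controls for the 6 genes called lower and for Aen, Tnfrsf10b, Btg2, Tigar, Ckap2 and Pml. Over all genes, 13.2% lay above, 12.7% below and 25.9% on either side. In YAP OE an unadjusted p under 0.05 (edgeR) was found for 7 of 33, and for 1945 of all 14804 genes tested. After adjustment, edgeR called 0 of the 33 in YAP OE, and DESeq2 and limma-voom called 0 as well. The median there was 0.019. The genes that fell in YAP KD were Trp73, Psrc1, Cpt1c, Polk, Ercc5 and Dcxr.

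Trp73, which encodes the p53 relative p73, fell most. It was 4.01, 5.11 and 4.93 CPM in CTR KD and 3.35, 2.54 and 2.74 CPM in YAP KD, without overlap (log2 fold change -0.71, SE 0.131, adjusted p = 0.0144 by edgeR). In YAP OE it was 4.46 ± 0.293 CPM against 4.6 ± 0.173 in CTR OE. Its call was lost without CTR KD replicate 3 (-0.67) and without YAP KD replicate 2 (-0.63) or 3 (-0.68). Psrc1, a microtubule-binding protein of the mitotic spindle, was 151.4, 147.3 and 147.4 CPM in CTR KD and 118.7, 126.6 and 123.3 CPM in YAP KD. Its log2 fold change of -0.28 (SE 0.0407, adjusted p = 0.00544 by edgeR) stayed past the threshold whichever of the 6 knockdown libraries was left out, and in YAP OE it was 0.048 (SE 0.0406).

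The remaining genes act in repair and metabolism. Polk, a DNA polymerase that copies past lesions, and Ercc5, a nuclease of nucleotide excision repair, had log2 fold changes of -0.30 (SE 0.0616, adjusted p = 0.0211 by edgeR) and -0.21 (SE 0.0452, 0.0287). Cpt1c, a carnitine palmitoyltransferase, had -0.28 (SE 0.0550, 0.0185) and Dcxr, a carbonyl reductase, -0.32 (SE 0.0779, 0.0449). Leaving out 1 knockdown library ended the call of Dcxr in 6 of 6 fits (-0.36 to -0.25). For Ercc5 this happened in 5 of 6, all but the fit without CTR KD replicate 2, and its value ran from -0.23 to -0.19. Polk lost its call in the same 5 fits (-0.34 to -0.27), and Cpt1c in the 3 that left out a YAP KD library (-0.30 to -0.27).

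Trp53 itself was 206 ± 12.4 CPM in CTR KD and 191.3 ± 3.75 in YAP KD, and 203.9 ± 1.99 in CTR OE and 202.2 ± 7.35 in YAP OE. Both pairs of groups overlapped, with log2 fold changes of -0.11 (SE 0.0492, adjusted p = 0.270 by edgeR) and -0.013 (SE 0.0401, adjusted p = 0.944). Of 20 regulators of p53, Trp53 included, edgeR called 0 in either experiment, and DESeq2 and limma-voom also called 0. An unadjusted p under 0.05 (edgeR) was found for 3 of the 20 in YAP KD and 0 in YAP OE. Over all genes it was found for 2868 of 14606 in YAP KD and 1945 of 14804 in YAP OE. Mdm4, the relative of Mdm2 that inhibits p53, had log2 fold changes of -0.15 (SE 0.0976) and 0.016 (SE 0.0448). Ppm1d, a phosphatase that reverses p53 activation, had -0.083 (SE 0.0527) and 0.096 (SE 0.0459), with YAP KD below and YAP OE above all controls.

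Genes that p53 represses through p21 and the DREAM complex, such as mitotic cyclins and kinases, were read last. Of 20 such genes, edgeR called 0 in YAP KD and 0 in YAP OE, and DESeq2 and limma-voom called 0. By edgeR, 2868 of all 14606 genes in YAP KD and 1945 of all 14804 in YAP OE had an unadjusted p under 0.05. Of the 20 genes, 1 had such a p in each experiment. Their median log2 fold changes were 0.040 and 0.016, and the values ran from -0.095 to 0.092 and from -0.068 to 0.14. Values were positive for 14 of the 20 in YAP KD and 14 in YAP OE, against 51.8% and 48.7% of all genes tested.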

How the data were processed

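Per the authors, reads were mapped with STAR on mm10 and quantified by RSEM on curated RefSeq transcripts, and edgeR was used for differential expression. Versions and a strand setting are not given in the sources used here. The deposited expected counts are not normalized and not always whole. The deposited TPM and FPKM values were not used here. RSEM divides reads that match several genes between them. Small RNA entries took 10.3% to 13.2% of the counts.

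Expected counts were rounded. The 6 libraries of an experiment were fitted together in edgeR 4.0.16 (R 4.3.3): filterByExpr, TMM factors, quasi-likelihood F test (two-sided), Benjamini-Hochberg adjustment over all genes kept, threshold 0.05. The SE is the absolute log2 fold change over the square root of F. Contrasts between experiments used 1 fit of 12 libraries (15049 genes). CPM values were scaled within each experiment. GC content was that of the longest GENCODE M1 coding transcript, available for 87.5% of genes tested and for all 10 described, and its trend was removed by lowess (span 0.3). Alternatives were DESeq2 1.42.0, limma-voom (limma 3.58.1), other scaling factors, other filters, removal of small RNA entries, effective lengths as offset, 1 joint fit, a replicate block and leaving out each library. The scripts were tested on simulated data. Whether the replicate numbers pair the libraries could not be decided, and the main fits used no pairing. The genes and lists were chosen with earlier results of these data known. Named genes are the 10 targets, Yap1, Ctgf, Cyr61, Amotl2, Trp53, Mdm4, Ppm1d and the 5 genes most like Cdkn1a. Every gene called in either experiment among the further p53 targets, regulators and DREAM-repressed genes is also named. Gadd45a, Sfn and Sesn1 were added as uncalled further targets that lay above the controls in YAP KD. Aen, Tnfrsf10b, Btg2, Tigar, Ckap2 and Pml were added as uncalled ones that lay below.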

Additional observations from a re-analysis of the deposited data

Results flagged for a closer look

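The change in YAP OE differed from that in YAP KD for 5 of the 10 genes (YAP OE effect minus YAP KD effect, edgeR, 12 libraries). Of all genes, 5.24% were called higher and 8.8% in either direction. Opposite changes of equal size also give a large difference. The sum of both effects, which is 0 for such changes, was called for 0 of the 10. The values on the log2 scale were 0.23 for Ccng1 (adjusted p = 0.0384), 0.43 for Plk2 (0.000719), 0.27 for Mdm2 (0.00568), 0.55 for Phlda3 (0.0106) and 0.23 for Eda2r (0.0427). The value was higher in YAP OE for each of them. Ccng1 and Eda2r lost the call in 10 and 9 of the 12 fits that left out 1 library, and with the replicate number as a block. Eda2r also lost it with total counts (0.23, adjusted p = 0.0620 by edgeR). Zmat3, not called here, was called in 6 of 9 other alternatives. With 3 libraries in each group, no single library was tested as an outlier.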

How the results depend on the processing

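Effects and counts of calls were recomputed under other scaling factors, filters, tools and left-out libraries. In 1195 cases an effect kept its direction and its side of the threshold, or a count stayed within 1.5 times. Effects lost a call in 69 cases, gained one in 20 and changed sign in 25. Counts moved by over 1.5 times, or to or from 0, in 31. A count that stayed can hide a changed call, as with DESeq2 in the knockdown (2 of the 10 against 3). In the knockdown, leaving out 1 library gave 298 to 1019 genes called and 0 to 5 of the 10 targets. In the overexpression it gave 154 to 327 genes and 0 to 1 target, and for the difference between the experiments 3 to 6 targets. Without a filter on low counts 556 genes were called in the overexpression, and 1 fit over all 12 libraries called 1261 in the knockdown. Removing the GC trend gave 1333 genes and 7 targets in the knockdown, and 298 genes and 1 target for the sum of both effects.

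Same-numbered libraries did not deviate together (r from -0.36 to 0.017 in the knockdown and from -0.017 to 0.062 in the overexpression). These deviations carry the trend with GC content, so they cannot decide whether the numbers pair the samples. The paper states paired samples for its t tests. With the replicate number as a block, the knockdown had 193 genes and 0 targets called, the difference 784 genes and 3 targets, and the sum 83 genes. With the GC trend removed as well, the block left 612 genes and 3 targets (Zmat3, Phlda3 and Eda2r) in the knockdown, where Plk2 had an adjusted p of 0.072. The block also ended the calls of all 6 further p53 targets in the knockdown.

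Signs turned only for values near 0 that were not called. Sesn2 in the overexpression was 0.0021 with upper-quartile factors, 0.0035 with total counts, 0.017 without the GC trend and 0.018 with the replicate block added to that, and -0.039 to 0.035 with 1 library left out. The sum for Mdm2 was -0.00074 without small RNA entries and -0.012 to 0.048 with 1 library left out. Leaving out 1 library gave -0.13 to 0.099 for Sesn2 in the knockdown, -0.10 to 0.13 for its difference and -0.14 to 0.095 for its sum, and -0.079 to 0.19 for the difference of Bbc3. In the overexpression it gave -0.11 to 0.054 for Cdkn1a, -0.018 to 0.089 for Zmat3, -0.038 to 0.010 for Trp53, -0.018 to 0.037 for Mdm4, -0.012 to 0.067 for Ercc5 and -0.091 to 0.0038 for Trp73. Where a call changed, the cause was not tested. Counts per library were 254 to 448 for Cdkn1a and 112 to 272 for Trp73, and the part of depth in their errors was not tested.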

Other observations

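Over the 12 libraries, with each gene centred within its experiment, the genes whose log2 CPM was most like that of Cdkn1a among 12385 others were Pcnx4 (Pearson r = 0.92), Rps26 (0.89), Bmyc (0.89), Lrrc31 (0.88) and Plekhf1 (0.88). None of these 5 was called in either experiment. The other p53 targets were less like it, from 0.53 for Phlda3 and 0.52 for Eda2r to -0.043 for Sesn2. The libraries share the trend with GC content, and the values are a description.

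The mean transcript length that RSEM assigned to Eda2r, which has several transcripts, was 3580.3 to 3627.3 bases in CTR KD and 3602 to 3637.8 in YAP KD, and 3611.7 to 3659.3 in CTR OE and 3601.6 to 3630.2 in YAP OE. The groups overlapped in both experiments.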
